A study of Homo sapiens with 22 samples.

Results

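RNA polymerase III makes the transfer RNAs, the 5S ribosomal RNA, U6 and other short RNAs. Its subunits are encoded by mRNAs, and the levels of 9 of these were followed here: POLR3A, POLR3B, POLR3C, POLR3D, POLR3E, POLR3F, POLR3G, POLR3GL and POLR3K. These are the genes of a fixed list of symbols, and all 9 were found among the 20411 genes of the expression tables of both cell lines. With the FTO degrader, POLR3G, POLR3E and POLR3D were lower in MOLM-13 cells, and POLR3K and POLR3G were lower in NB4 cells. None of the 9 was called higher in either line at the same cutoff.

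As background, POLR3A and POLR3B form the catalytic core, and POLR3K sits at it and acts in cleavage of the nascent RNA and in termination. POLR3D and POLR3E form a pair that resembles the initiation factor TFIIF. POLR3C and POLR3F form a further subcomplex with either POLR3G or its paralog POLR3GL, which take the same place, and this subcomplex contacts the factor TFIIIB at the promoter. POLR3G is known for high levels in stem cells and transformed cells, whereas POLR3GL is found in most cell types. Growing leukemia cells need large amounts of the RNAs that the enzyme makes, because each ribosome holds 5S RNA and translation consumes transfer RNA.

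The study asked what loss of FTO, a demethylase of N6-methyladenosine in mRNA, does to gene expression in acute myeloid leukemia (AML). MOLM-13, a line with a KMT2A rearrangement, and NB4, an acute promyelocytic line, both labelled wild type, were given 2 μM FP54 or its vehicle DMSO for 48 h. FP54 is a proteolysis-targeting chimera that brings FTO to the ubiquitin ligase VHL. Poly(A) RNA was sequenced from 3 libraries per treatment and line, which makes 12 libraries in 4 groups, while 10 further samples (m6A-seq and polysome-seq) were not analysed here. Each line is 1 cell model, and DMSO was the only control, so an effect of FP54 that does not pass through FTO cannot be told apart from loss of FTO. Nothing in the labels says whether the libraries came from separate cultures, so a p-value measures the spread between these libraries, which may be technical.

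The values are RPKM, read counts divided by transcript length and library size, and each line has its own table. The reads behind them came to 16299750 to 17346948 per DMSO library and 5829752 to 19191043 per FP54 library in MOLM-13 cells. In NB4 cells they came to 20654130 to 22344134 with DMSO and 10595710 to 13071368 with FP54, with each FP54 library less deep than any DMSO library of that line. FTO mRNA was not called in either line as deposited, with a log2 fold change of −0.00 in MOLM-13 and −0.41 in NB4 cells (adjusted p = 0.0119 from limma), but in NB4 cells it was called lower with median-ratio scaling (−0.60) and quantile normalization (−0.74). This says nothing of degradation, because the degrader acts on the FTO protein, which was not measured here. Of the myeloid markers, CD33 (12.7 to 36.0 RPKM over both lines) and SPI1 (59.2 to 185 RPKM) were present throughout, while ELANE was at most 0.218 RPKM in NB4 cells. The 3 markers HOXA9, MEIS1 and FLT3 summed to 83.1 to 122 RPKM in MOLM-13 and 4.84 to 6.35 RPKM in NB4 libraries. In MOLM-13 cells, DMSO replicate 2 stood apart on the first principal component, at −10.3 against −30.4 and −33.8 for the other DMSO libraries. FP54 replicate 1 also stood apart, at 39.7 against 18.7 and 16.1. Over all genes, lower calls went from 878 to 1222 without DMSO replicate 2 and to 486 without FP54 replicate 1. DMSO replicate 2 was also the lowest DMSO library for 8 of the 9 subunits, so calls that change when it is left out are given with and without it.

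A gene was called where limma gave an unadjusted p below 0.01 and its log2 fold change reached 0.5 in size, fitted to log2(RPKM + 0.1) over genes with a mean of at least 1 RPKM in the 6 libraries of a line. All 9 subunits passed that filter in both lines. Fold changes on this scale understate the change of genes near the pseudocount. In MOLM-13 cells, 3 of the 9 subunits were called lower, where 9.04% of the 9710 genes tested were called lower, and 0 were called higher, where 9.3% of all genes were. At a Benjamini-Hochberg adjusted p below 0.05 from limma and no minimum fold, the counts were again 3 lower and 0 higher, against 9.32% and 9.84% of all genes. At an unadjusted p below 0.05, 4 subunits were lower and 0 higher in MOLM-13 cells, both with limma and with limma-voom on recovered reads. The share of all genes at that threshold was not taken, here or below, so these counts have no base to be read against. The FP54 libraries lay wholly below the DMSO libraries for 6 of the 9 subunits and wholly above for 0, where 17% and 20.2% of all genes did so.

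In NB4 cells, 2 of the 9 subunits were called lower, where 10.7% of the 9853 genes tested were, and 0 were called higher, where 18.6% were. By adjusted p alone, 3 were lower and 1 was higher, against 22% and 29.8% of all genes. With median-ratio scaling or quantile normalization, 3 were called lower and 0 higher, and 5 were lower and 0 higher by adjusted p. The share of all genes by adjusted p was not taken under these scalings. By the p and fold cutoff, calls over all genes moved the same way. Lower calls went from 1050 as deposited to 2010 and 1363, and higher calls from 1834 to 1168 and 1280. At an unadjusted p below 0.05, 3 subunits were lower and 1 was higher in NB4 cells, with limma and with limma-voom alike. The groups lay apart with lower values for 4 subunits and with higher values for 1, where 26.2% and 34.3% of all genes did so. The median log2 fold change of the 9 subunits was −0.26 in MOLM-13 cells, beside 0.003 over all genes tested, and −0.20 in NB4 cells, beside 0.07. It was −0.57 in MOLM-13 cells without DMSO replicate 2, and in NB4 cells −0.40 with median-ratio scaling and −0.37 with quantile normalization. In bulk RNA, fewer cells of a kind and less RNA per cell cannot be told apart. The 8 myeloid markers summed to 2221 to 2485 RPKM with DMSO and 1233 to 1310 RPKM with FP54 in NB4 cells, mostly through MPO. In MOLM-13 cells they summed to 945 to 1099 RPKM with DMSO and 1031 to 1374 RPKM with FP54. Among these markers, MPO was called lower and CSF3R higher in both lines, and CEBPE was called lower in NB4 cells only. The remaining myeloid markers were not called in either line, and ELANE was not tested in NB4 cells. The 3 T cell markers summed to 6.11 to 7.05 RPKM with DMSO and 11.2 to 11.7 RPKM with FP54 in NB4 cells, mostly CD3D, while CD3E stayed at or under 0.201 RPKM, and to at most 0.614 RPKM in MOLM-13 cells. B cell and erythroid sums were at most 1.73 and 0.235 RPKM over both lines, and the epithelial sum was 8.94 to 13.1 RPKM in NB4 cells, mostly EPCAM, and at most 1.58 RPKM in MOLM-13 cells. The part of these markers and of the lower depth of the NB4 FP54 libraries in the subunit values was not tested. The plot of subunit levels by library shows these values, and the plot of fold changes sets the lines side by side.

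**Figure D1:**
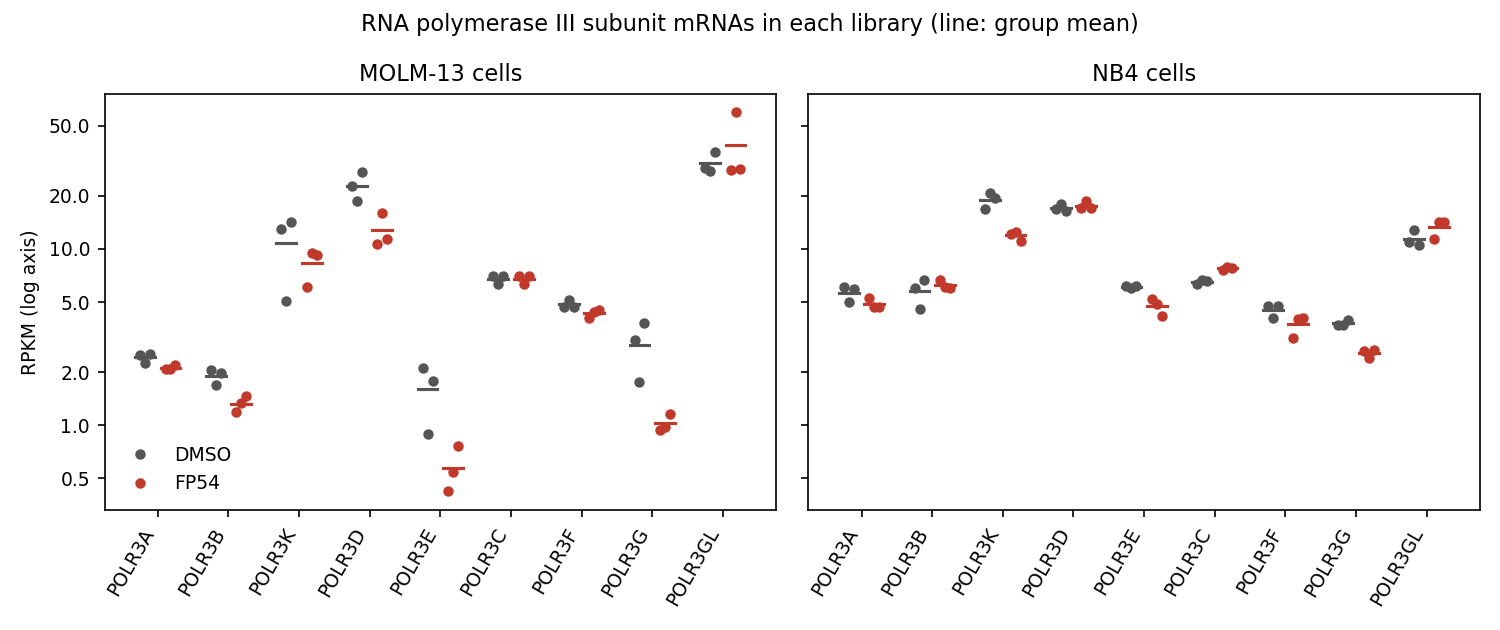
RPKM (log axis) of the 9 RNA polymerase III subunit mRNAs in each library of MOLM-13 (left) and NB4 cells (right). Points are libraries, grey for DMSO and red for FP54, and short lines are group means. In MOLM-13 cells the FP54 points of POLR3A, POLR3B, POLR3D, POLR3E, POLR3F and POLR3G lie below all DMSO points. In NB4 cells those of POLR3E, POLR3F, POLR3G and POLR3K do.

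**Figure D2:**
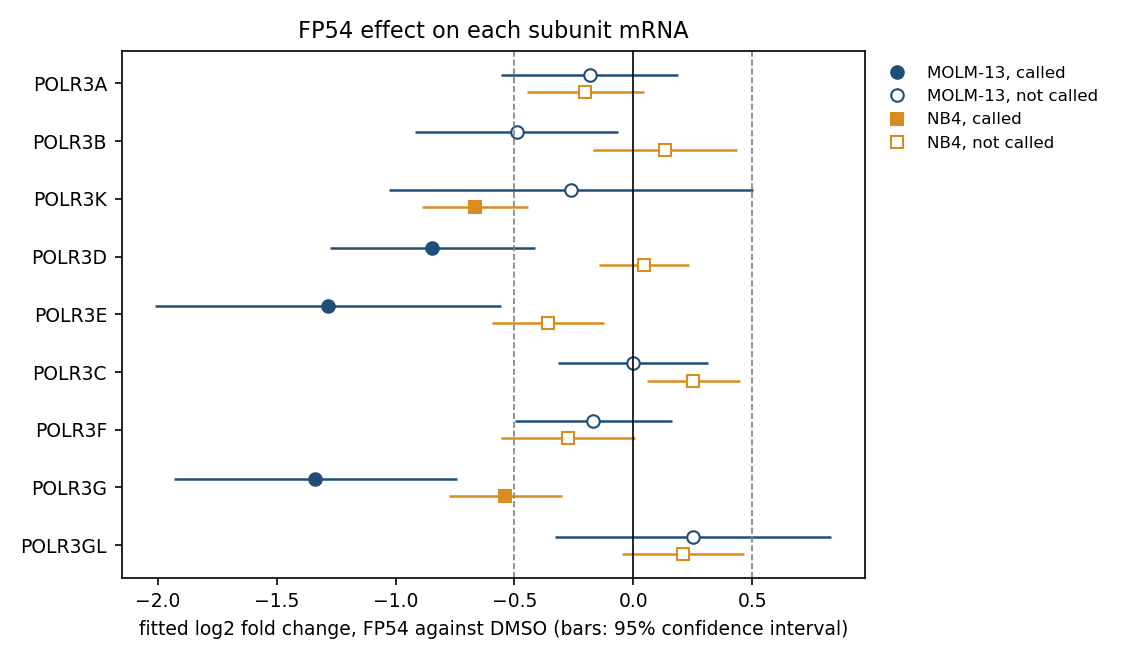
Fitted log2 fold change of each subunit, FP54 against DMSO, with its 95% confidence interval, for MOLM-13 (circles) and NB4 cells (squares). Filled symbols passed the cutoff, and dashed lines mark 0.5 in either direction. The intervals of POLR3D do not overlap between the lines.

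Among the called subunits, POLR3G, on chromosome 5 from 90471748 to 90514557 (hg38, plus strand), was the only subunit called lower in both lines. In MOLM-13 cells it was at 3.03, 1.77 and 3.81 RPKM in the DMSO libraries and at 0.945, 0.980 and 1.16 RPKM in the FP54 libraries. The groups did not overlap, and the DMSO value closest to the FP54 values was that of replicate 2. Its log2 fold change was −1.34 (standard error 0.27, limma adjusted p = 0.0103), and −1.64 without DMSO replicate 2. The FP54 values rest on 23 reads in replicate 2 of FP54, the shallowest library. In NB4 cells POLR3G was at 3.69, 3.70 and 3.98 RPKM with DMSO and at 2.65, 2.41 and 2.68 RPKM with FP54, again with no overlap. The log2 fold change there was −0.54 (standard error 0.11, limma adjusted p = 0.00190), just past the minimum fold, and it came to −0.49 without FP54 replicate 2, which ended the call. POLR3G shares 260 exonic bases with MBLAC2 on the other strand, and the strand setting of the counting is not given in the sources used here.

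POLR3GL, the paralog that takes the place of POLR3G in the enzyme, was not called in either line. It lies on chromosome 1 from 145964690 to 145978848 (plus strand). In MOLM-13 cells it was at 28.7, 27.5 and 35.6 RPKM with DMSO and at 28.2, 59.4 and 28.5 RPKM with FP54. The value of 59.4 RPKM, in the shallowest library, stood far above the rest, and the log2 fold change of 0.25 (95% confidence interval −0.33 to 0.83) came to −0.10 without that library. In NB4 cells POLR3GL was at 10.9, 12.8 and 10.6 RPKM with DMSO and at 11.4, 14.1 and 14.2 RPKM with FP54, and the groups overlapped. The log2 fold change was 0.21 in NB4 cells (95% confidence interval −0.05 to 0.47), and 0.013 with median-ratio scaling. A same-strand protein-coding gene without a symbol in the annotation shares 382 exonic bases with POLR3GL, so reads there could have been split or dropped.

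The ratio of POLR3G to POLR3GL within a library does not change when all genes of a library are multiplied by 1 factor, as median-ratio scaling does, although quantile normalization can change it. In MOLM-13 cells POLR3G made up 9.57%, 6.03% and 9.66% of the summed RPKM of the pair with DMSO, and 3.24%, 1.62% and 3.91% with FP54. In NB4 cells it made up 25.3%, 22.5% and 27.3% with DMSO, and 18.9%, 14.6% and 15.8% with FP54. POLR3GL thus had the larger RPKM in all 12 libraries, and every FP54 share lay below every DMSO share of the same line. The size of a share depends on the lengths in RPKM, here 4024 exonic bases for POLR3G and 1811 for POLR3GL. With DMSO in NB4 cells, the recovered reads were 307, 317 and 358 for POLR3G and 408, 492 and 428 for POLR3GL. On the log2 scale the ratio was −3.48 ± 0.42 (SD, n = 3) with DMSO and −5.15 ± 0.68 (SD, n = 3) with FP54 in MOLM-13 cells. The difference of −1.67 had an exact two-sided permutation p = 0.1, the smallest that 3 libraries against 3 allow, and it was −1.28 without FP54 replicate 2. In NB4 cells the ratio was −1.59 ± 0.19 (SD, n = 3) with DMSO and −2.35 ± 0.23 (SD, n = 3) with FP54. Here the difference was −0.77, also with an exact two-sided permutation p = 0.1.

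**Figure D3:**
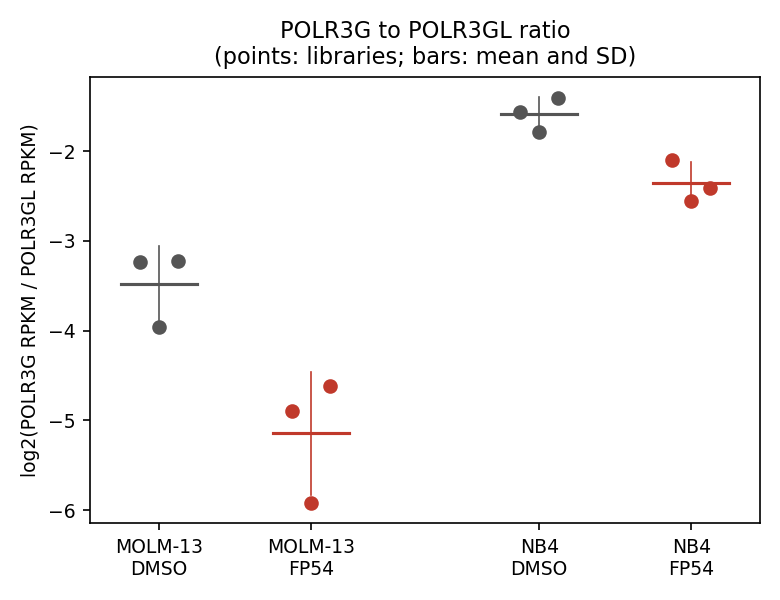
Log2 ratio of POLR3G to POLR3GL RPKM in each library, by line and treatment. Points are libraries, horizontal lines are means and vertical lines are 1 SD. In both lines all FP54 points lie below all DMSO points, and the MOLM-13 point at −5.92 is the library with the high POLR3GL value.

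Both genes of the TFIIF-like pair were called lower in MOLM-13 cells only, as deposited. For POLR3D the difference between the lines also passed its test, though not under every scaling. POLR3D, on chromosome 8 from 22245133 to 22254601 (plus strand), was at 22.6, 18.6 and 27.4 RPKM with DMSO and at 10.7, 16.1 and 11.4 RPKM with FP54 in MOLM-13 cells. No FP54 value reached the lowest DMSO value, and the log2 fold change was −0.85 (standard error 0.19, limma adjusted p = 0.0171). In NB4 cells the same gene was at 16.9, 18.0 and 16.3 RPKM with DMSO and at 17.0, 18.6 and 17.2 RPKM with FP54. These groups overlapped, with a log2 fold change of 0.04 (95% confidence interval −0.15 to 0.23). The difference of the effects, NB4 minus MOLM-13, was 0.89 (standard error 0.22, adjusted p = 0.0162 from limma's interaction). Of the 9 subunits, POLR3D alone passed this test at an adjusted p below 0.05, which 14.2% of the 8849 genes tested in both lines passed. It was 0.72 with median-ratio scaling, with an adjusted p of 0.0608 from limma's interaction, which ended the call.

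POLR3E, the partner of POLR3D, lies on chromosome 16 from 22297375 to 22335101 (plus strand). In MOLM-13 cells it was at 2.12, 0.899 and 1.79 RPKM with DMSO and at 0.423, 0.542 and 0.762 RPKM with FP54. DMSO replicate 2 came close to the highest FP54 value, but the groups did not overlap. The log2 fold change was −1.28 (standard error 0.33, limma adjusted p = 0.0245), and −1.63 without DMSO replicate 2. The call was lost without DMSO replicate 1, DMSO replicate 3 or FP54 replicate 1, where the log2 fold change came to −1.05, −1.17 and −1.11 in turn, and the limma adjusted p to 0.0909, 0.106 and 0.103. In NB4 cells POLR3E was at 6.13, 6.01 and 6.18 RPKM with DMSO and at 5.19, 4.88 and 4.19 RPKM with FP54. The NB4 groups lay apart, and the log2 fold change of −0.36 had an adjusted p of 0.0164 from limma but did not reach the minimum fold. The difference between the lines in POLR3E was 0.93 (standard error 0.35, adjusted p = 0.0961 from limma's interaction). POLR3E shares 751 exonic bases with a long noncoding RNA gene on the other strand, so the unknown strand setting bears on it as well.

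POLR3K, on chromosome 16 from 46407 to 53608 (minus strand), had the largest fitted decrease of the 9 in NB4 cells. It was at 16.9, 20.8 and 19.4 RPKM with DMSO and at 12.2, 12.5 and 11.1 RPKM with FP54, with no overlap. The log2 fold change was −0.67 (standard error 0.10, limma adjusted p = 0.000338), and it ranged from −0.75 to −0.60 with 1 library left out. In MOLM-13 cells POLR3K was at 13.0, 5.06 and 14.2 RPKM with DMSO and at 6.11, 9.54 and 9.21 RPKM with FP54. DMSO replicate 2 lay below all 3 FP54 libraries there, and the log2 fold change was −0.26 (95% confidence interval −1.03 to 0.50). Without that library the MOLM-13 value was −0.73 and passed the cutoff (adjusted p = 0.0343 from limma). The effect in NB4 minus that in MOLM-13 cells was −0.40 (95% confidence interval −1.28 to 0.47) with all libraries.

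The catalytic subunits were not called in either line. POLR3A, on chromosome 10 from 77953148 to 78029522 (minus strand), was at 2.51, 2.25 and 2.53 RPKM with DMSO and at 2.08, 2.10 and 2.20 RPKM with FP54 in MOLM-13 cells. These groups lay apart by a small margin, with a log2 fold change of −0.18 (95% confidence interval −0.56 to 0.19). In NB4 cells POLR3A was at 6.08, 5.00 and 5.91 RPKM with DMSO and at 5.29, 4.69 and 4.71 RPKM with FP54, with overlap and a log2 fold change of −0.20 (95% confidence interval −0.45 to 0.04). That value was −0.40 with median-ratio scaling (limma adjusted p = 0.00776) and −0.37 with quantile normalization (limma adjusted p = 0.0119), under the minimum fold. POLR3B, on chromosome 12 from 106357748 to 106510198 (plus strand), was at 2.07, 1.69 and 1.97 RPKM with DMSO and at 1.19, 1.33 and 1.46 RPKM with FP54 in MOLM-13 cells. There the groups did not overlap, and the log2 fold change of −0.49 missed the cutoff (standard error 0.19, limma adjusted p = 0.0997). In NB4 cells POLR3B was at 6.04, 4.58 and 6.70 RPKM with DMSO and at 6.69, 6.09 and 6.03 RPKM with FP54. The groups overlapped, and the log2 fold change was 0.13 (95% confidence interval −0.17 to 0.44), with a negative sign under both other scalings and without DMSO replicate 2. The difference between the lines in POLR3B was 0.62 (adjusted p = 0.0716 from limma's interaction).

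The remaining pair, POLR3C and POLR3F, are the partners of POLR3G or POLR3GL in the subcomplex that contacts TFIIIB. POLR3C, on chromosome 1 from 145824053 to 145844402 (plus strand), was at 7.05, 6.31 and 7.01 RPKM with DMSO and at 6.99, 6.33 and 7.06 RPKM with FP54 in MOLM-13 cells. Here the log2 fold change was 0.00 (95% confidence interval −0.32 to 0.32), so that its sign is not defined. In NB4 cells POLR3C was at 6.37, 6.63 and 6.55 RPKM with DMSO and at 7.64, 7.89 and 7.82 RPKM with FP54, and it was the one subunit whose FP54 libraries all lay above the DMSO libraries. Its log2 fold change of 0.25 (adjusted p = 0.0330 from limma) was under the minimum fold, and it was 0.06 with median-ratio scaling. POLR3F, on chromosome 20 from 18466878 to 18484648 (plus strand), was at 4.71, 5.17 and 4.68 RPKM with DMSO and at 4.05, 4.37 and 4.51 RPKM with FP54 in MOLM-13 cells, and at 4.72, 4.08 and 4.74 and then 3.13, 3.99 and 4.07 RPKM in NB4 cells. Both lines had groups that lay apart by small margins, with log2 fold changes of −0.17 (95% confidence interval −0.50 to 0.16) and −0.27 (95% confidence interval −0.56 to 0.01). In NB4 cells POLR3F was at −0.47 with median-ratio scaling (limma adjusted p = 0.00556) and −0.49 with quantile normalization (limma adjusted p = 0.00563), just under the minimum fold. POLR3F shares 404 exonic bases with DZANK1 on the other strand, and POLR3C shares 43 with RNF115.

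**Figure D4:**
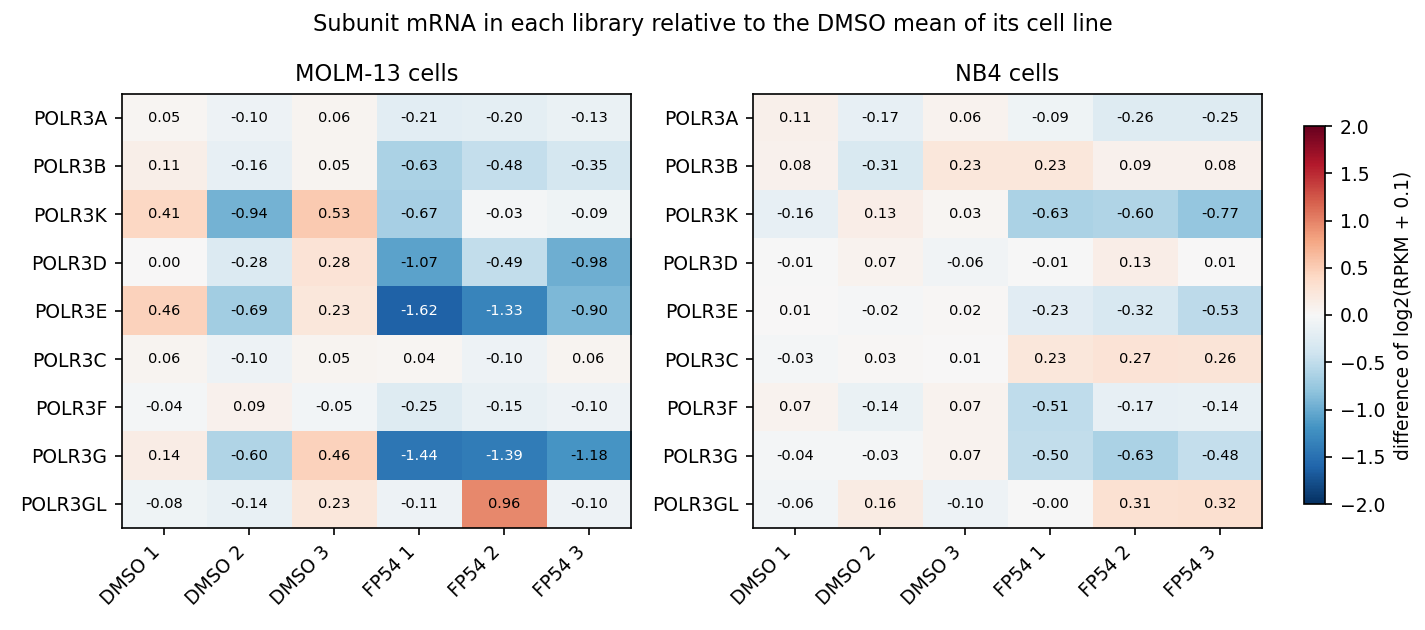
Difference of log2(RPKM + 0.1) from the DMSO mean of the same line, for each subunit (rows) and library (columns) of MOLM-13 (left) and NB4 cells (right), with blue for lower and red for higher values. In MOLM-13 cells DMSO replicate 2 is at −0.94 for POLR3K, −0.69 for POLR3E and −0.60 for POLR3G, and FP54 replicate 2 is at 0.96 for POLR3GL.

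How firmly the lines can be told apart also rests on DMSO replicate 2 of MOLM-13 cells. Without it, 4 of the 9 subunits differed between the lines at an adjusted p below 0.05 from limma's interaction: POLR3D (1.03), POLR3E (1.27), POLR3G (1.10) and POLR3B (0.71), as NB4 minus MOLM-13 log2 effects, where 16.8% of all genes did so. All 4 had the more negative effect in MOLM-13 cells, and 1142 of the 1488 genes called in that fit also had the lower effect there. The library left out was the lowest DMSO library for 8 of the 9 subunits. Leaving it out therefore lowers their fitted MOLM-13 effects. MYC mRNA, a known activator of transcription by RNA polymerase III, was at 56.5, 13.8 and 40.2 RPKM in the MOLM-13 DMSO libraries, so the same library was lowest there too, and at 5.91, 11.8 and 18.8 RPKM with FP54. Its part in the subunit values was not tested. The log2 fold change of MYC was −1.52 in MOLM-13 cells (adjusted p = 0.0567 from limma, not called), and it was called without DMSO replicate 2 (−2.11, adjusted p = 0.00855 from limma) or FP54 replicate 3 (−1.91, adjusted p = 0.0303 from limma). It was −0.94 in NB4 cells (adjusted p = 1.62e-05 from limma), where it fell from 133 to 69.6 RPKM. MAF1, the repressor of the enzyme, was not called, with log2 fold changes of 0.08 (95% confidence interval −0.26 to 0.41) in MOLM-13 and −0.07 (95% confidence interval −0.28 to 0.15) in NB4 cells, the latter positive with quantile normalization.

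Scaling mattered in NB4 cells. The median log2 fold change over all tested genes was 0.07 as deposited and −0.13 with median-ratio scaling, so each NB4 subunit moved down with it. Relative to the median of all tested genes, the NB4 log2 fold changes were −0.74 for POLR3K, −0.61 for POLR3G, −0.43 for POLR3E and 0.18 for POLR3C. POLR3E was called lower in NB4 cells with median-ratio scaling (−0.55) and with quantile normalization (−0.53). Over all genes, 1050 were called lower and 1834 higher as deposited, 2010 and 1168 with median-ratio scaling, and 1363 and 1280 with quantile normalization. For the difference between the lines the split was 332 lower and 926 higher in NB4 as deposited, and 834 and 623 with median-ratio scaling. The mean level of 416 olfactory receptor genes, which these cells should not use, was 0.00168 to 0.00372 RPKM with DMSO and 0.0496 to 0.0549 RPKM with FP54 in NB4 cells. After that level was subtracted from every library, 2 subunits were still called lower in NB4 cells.

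The order of the subunits by level differed between the lines with DMSO, although RPKM divides by a length over all annotated exons, which is long for POLR3A (15800 bases) and POLR3C (12068 bases) and lowers their values where most transcripts are shorter. In MOLM-13 cells POLR3GL came first (30.6 RPKM), followed by POLR3D (22.9), POLR3K (10.7), POLR3C (6.79), POLR3F (4.85), POLR3G (2.87), POLR3A (2.43), POLR3B (1.91) and POLR3E (1.60 RPKM). Neighbours in this order overlapped in their library values for POLR3K with POLR3C, POLR3G with POLR3A, and POLR3B with POLR3E. In NB4 cells the order was POLR3K (19.0 RPKM), POLR3D (17.1), POLR3GL (11.4), POLR3C (6.52), POLR3E (6.11), POLR3B (5.77), POLR3A (5.66), POLR3F (4.51) and POLR3G (3.79 RPKM). Here POLR3K overlapped with POLR3D, POLR3E with POLR3B, and POLR3B with POLR3A. Across the tables, which were normalized separately and were not tested against each other, POLR3A, POLR3B, POLR3E and POLR3K had higher values in all NB4 than in all MOLM-13 DMSO libraries, and POLR3E had the largest ratio of means at 3.81. POLR3GL (2.68-fold) and POLR3D (1.34-fold) were higher in MOLM-13 cells, and the other 3 subunits overlapped. The share of all genes that lie apart between the lines in this way was not taken, so nothing particular to the subunits can be read from it.

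Promoter sequences from RefSeq (GRCh38.p14) were matched by symbol for 7 of the 9 subunits, with 9 start sites in all, each with 250 bases before and 50 after the start. They were searched on both strands for CACGTG, the E-box to which MYC and its partner MAX can bind, and which reads the same on both strands. It was found in 3 of the 9 subunit promoters, 1 each of POLR3A, POLR3C and POLR3E, and in 7.26% of all 35116 promoters in the table. The start of POLR3E was also searched, after its sequence had been seen, for GGTTCGA, the first letters of the B box inside transfer RNA genes, which the enzyme's own factor TFIIIC recognises. This was found in that promoter and in 0.86% of all promoters. Sequences are shown for POLR3E (lower in MOLM-13 cells, chr16:22297159-22297428, plus strand), POLR3K (lower in NB4 cells, chr16:53589-53858, minus strand) and POLR3C (called in neither, chr1:145823950-145824219, plus strand), from 250 bases before the start to 20 after it and 5′ to 3′, with both motifs in capitals.
POLR3E: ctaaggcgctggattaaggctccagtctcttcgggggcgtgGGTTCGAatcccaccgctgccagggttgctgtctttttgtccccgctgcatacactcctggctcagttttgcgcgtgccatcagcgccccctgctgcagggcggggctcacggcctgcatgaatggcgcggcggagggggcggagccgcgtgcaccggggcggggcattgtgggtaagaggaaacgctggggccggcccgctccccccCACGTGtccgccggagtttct
POLR3K: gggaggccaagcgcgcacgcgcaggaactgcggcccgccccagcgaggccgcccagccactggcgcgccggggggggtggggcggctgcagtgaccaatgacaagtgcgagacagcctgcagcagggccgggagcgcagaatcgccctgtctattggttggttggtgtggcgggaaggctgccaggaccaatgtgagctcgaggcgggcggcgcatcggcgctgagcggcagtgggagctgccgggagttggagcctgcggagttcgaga
POLR3C: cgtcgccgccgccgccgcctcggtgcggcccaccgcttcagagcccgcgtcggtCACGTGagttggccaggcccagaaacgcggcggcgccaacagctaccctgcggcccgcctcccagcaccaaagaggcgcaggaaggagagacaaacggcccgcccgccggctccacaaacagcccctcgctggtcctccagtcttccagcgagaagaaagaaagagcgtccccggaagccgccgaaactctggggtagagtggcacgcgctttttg
The E-box begins 1 base before the start of POLR3E and 196 bases before the POLR3C start shown, and the GGTTCGA of POLR3E begins 209 bases before its start. The window of the other POLR3C start (chr1:145824195-145824494) holds no E-box. POLR3K holds neither motif in this window. A match says only that the letters are there, and the subunits with an E-box included both called and uncalled genes.

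The rest of the enzyme and its partners were read from lists of related genes, all shown in the plot of list fold changes. Of 9 further subunits, most of them shared with RNA polymerase I or II, 1 was called lower in MOLM-13 cells (POLR2H, log2 fold change −0.51) and 4 in NB4 cells (POLR2F −1.14, POLR2L −0.88, POLR2E −0.63 and POLR2K −0.57), with 0 called higher in either line. At an unadjusted p below 0.05, 2 were lower in MOLM-13 and 7 in NB4 cells, with limma as with limma-voom. In either line 0 were higher at that threshold. The list median was −0.34 in MOLM-13 and −0.47 in NB4 cells. Without DMSO replicate 2, 4 of the 9 were called lower in MOLM-13 cells, without FP54 replicate 2, 0 were, and in NB4 cells 7 were with median-ratio scaling. For this and the following lists, the shares over all genes were 9.04% lower and 9.3% higher in MOLM-13 cells. They were 10.7% and 18.6% in NB4 cells. Lower calls over all genes were 1222 of 9710 in MOLM-13 cells without DMSO replicate 2 and 850 without FP54 replicate 2. With median-ratio scaling they were 2010 of 9840 in NB4 cells. Of these 9 further subunits, POLR2E was the one whose effect differed between the lines, by −0.94 (adjusted p = 0.00852 from limma's interaction).

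Of 18 initiation factor genes, MOLM-13 cells had 3 called lower, where 9.04% of all genes were. NB4 cells had 2 called lower (5 with median-ratio scaling), near the 10.7% of all genes. In both lines 0 were called higher. At an unadjusted p below 0.05, 3 were lower and 1 higher in MOLM-13 cells with limma, as with limma-voom. In NB4 cells 5 were lower and 2 higher with either. GTF3C6, a subunit of TFIIIC, had log2 fold changes of −1.18 and −1.01, and GTF3A, the factor TFIIIA that places the enzyme on 5S RNA genes, had −0.89 and −0.58, both called in both lines, although GTF3A was not called in NB4 cells with quantile normalization (−0.40). ZNF143, which acts at the promoters of small nuclear RNAs, was called in MOLM-13 cells (−0.55). The TFIIIB genes BDP1, BRF1, BRF2 and TBP were not called in either line, and the list median was −0.05 in MOLM-13 cells (0.005 without FP54 replicate 2) and −0.07 in NB4 cells. Between the lines, 0 of these 18 genes differed at an adjusted p below 0.05 from limma's interaction, and 0 at an unadjusted p below 0.05 with limma or limma-voom. With median-ratio scaling 1 of the 18 passed the adjusted and 5 the unadjusted threshold, all with the lower effect in NB4 cells, and with quantile normalization 1 passed each.

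Among the regulators, SSB was called lower in MOLM-13 (−0.74) and in NB4 cells (−0.63), and MYC in NB4 cells, where RB1, a repressor of the enzyme, was called higher (0.59, and 0.39 with median-ratio scaling, not called). SSB encodes La, which binds the ends of new transcripts. Of 17 genes for maturation and export of transfer RNA and other products, 16 were tested in MOLM-13 cells, and 5 were called lower: TRMT6 (−1.25), TSEN15 (−1.21), SSB, XPOT (−0.73) and TRMT1 (−0.62). Without DMSO replicate 2, 8 were. In NB4 cells 4 of 17 were called lower, namely CLP1 (−0.78), TRMT61A (−0.73), ELAC2 (−0.63) and SSB, and 9 were with median-ratio scaling. TRMT6 and TRMT61A form a transfer RNA methyltransferase, ELAC2 trims the 3′ ends of transfer RNA, and XPOT carries it out of the nucleus. XPOT had a positive effect in NB4 cells (0.45, under the minimum fold), and its effects differed between the lines by 1.18 (adjusted p = 0.000843 from limma's interaction).

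For comparison with the other nuclear polymerases, 6 subunits specific to RNA polymerase I and 7 specific to RNA polymerase II were taken. Of the former, 2 were called lower in MOLM-13 cells (POLR1A −1.49 and POLR1B −1.18) and 3 in NB4 cells (POLR1G −1.40, POLR1B −0.67 and POLR1F −0.65), and the fitted value was negative for all 6 in both lines, with a median of −0.52 in each. In MOLM-13 cells their groups overlapped for all 6, and 5 were called lower without DMSO replicate 2, with a median of −0.91, but 0 without FP54 replicate 2. In NB4 cells 5 were called lower with median-ratio scaling. Of the RNA polymerase II subunits, 0 of 7 were called in MOLM-13 cells, where limma and limma-voom each gave 1 lower and 1 higher at an unadjusted p below 0.05. Their median was 0.03 there, and −0.08 without DMSO replicate 2. In NB4 cells 1 of 7 was called lower (POLR2I, −0.84) and 4 were with median-ratio scaling, with a median of −0.30. Differences between these lists were not tested.

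**Figure D5:**
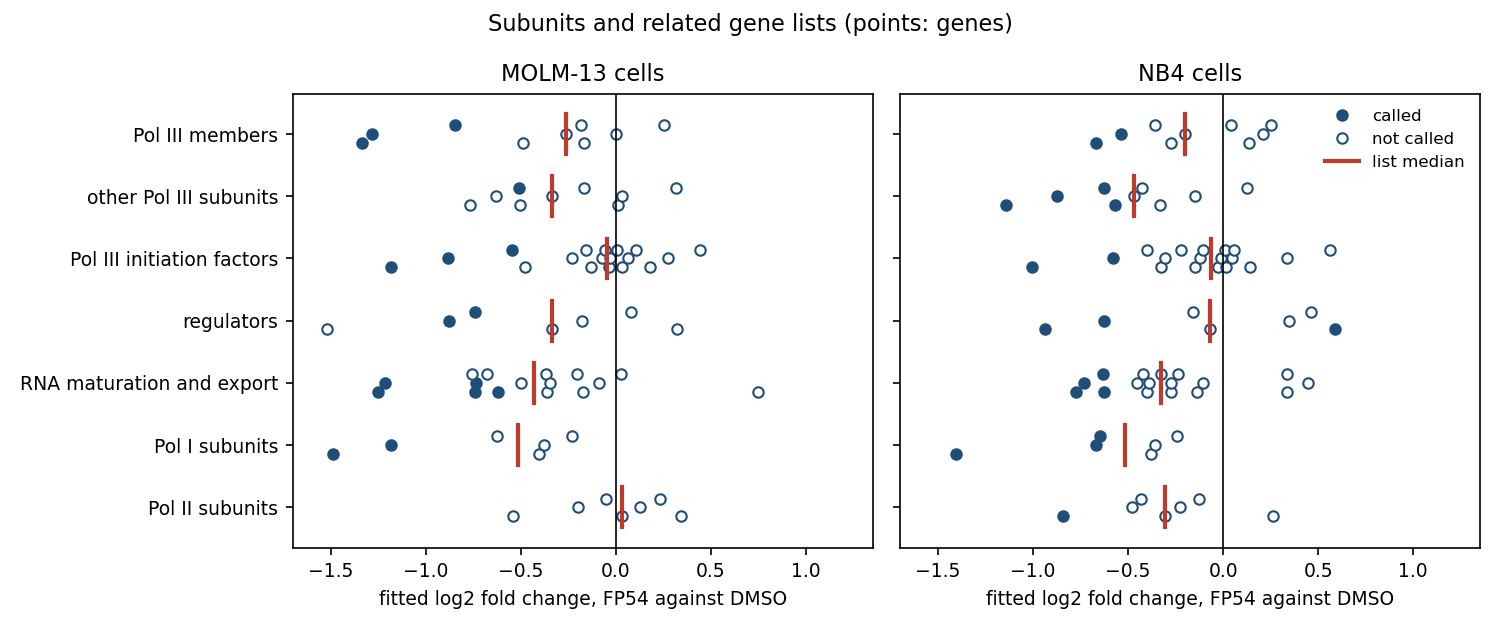
Fitted log2 fold change, FP54 against DMSO, of each tested gene in the lists, for MOLM-13 (left) and NB4 cells (right). Points are genes, filled where called, and red bars are list medians, which for the 9 RNA polymerase III subunits lie at −0.26 and −0.20.

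The patterns most like those of POLR3G and POLR3GL were sought among the 8849 genes tested in both lines, by the root mean square difference over the 12 libraries of log2(RPKM + 0.1) minus the DMSO mean of the line. VARS1 (0.13), PSMG1 (0.14) and STEAP3 (0.17) were nearest to POLR3G. TCEAL8 (0.16), PPCS (0.17) and PITHD1 (0.17) were nearest to POLR3GL. The genes near POLR3G had log2 fold changes of −1.29, −1.14 and −1.25 in MOLM-13 and −0.49, −0.53 and −0.44 in NB4 cells. They were chosen by closeness in the same 12 libraries, so fold changes near those of POLR3G follow from the choice.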

How the data were processed

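mRNA-seq libraries of MOLM-13 and NB4 cells were grouped by the cell line and treatment in the labels, 3 per group. The authors selected poly(A) RNA, removed duplicate reads, trimmed with cutadapt 4.8, aligned to hg38 with STAR 2.7.11b, counted reads on protein-coding genes of GENCODE 42 with featureCounts 2.0.3 and deposited RPKM, 1 table per line. The cell line of the NB4 table was taken from its name. From the deposited RPKM, log2(RPKM + 0.1) was fitted with limma 3.58.1 (R 4.3.3, empirical Bayes with a trend), per line for genes with a mean of at least 1 RPKM, and in 1 model over both lines for the difference of effects, over genes tested in both. P-values were adjusted by Benjamini-Hochberg over all genes tested. Whole reads were recovered from RPKM with exonic lengths of GENCODE 44 annotation, whole within 0.1 for 98.89% to 99.2% of values under 100 reads. They gave the depth per library and an alternative test by limma-voom.

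The 9 subunits and the gene lists were chosen with earlier results of these data known. Named genes were all 9 subunits, up to 5 called genes per list with the largest change, MYC, MAF1 and FTO, and the 3 genes nearest to POLR3G and to POLR3GL. The TFIIIB genes and the markers were named after their values were seen, and some genes of the lists are not reported here. Alternatives were other pseudocounts, filters, scalings, empirical Bayes settings, a replicate block, leaving out each library and, added after seeing the data, subtraction of the olfactory receptor level. Ratios of POLR3G to POLR3GL were compared by an exact permutation test. Depth limits low genes, and the number of libraries limits every comparison.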

Additional observations from a re-analysis of the deposited data

Results flagged for a closer look

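The effect of FP54 differed between the lines, as NB4 minus MOLM-13 log2 fold change at an adjusted p below 0.05 from limma's interaction over 8849 genes, for 6 of the genes named in the text. It was higher in NB4 cells for POLR3D (0.89, adjusted p = 0.0162), RB1 (0.93, adjusted p = 0.0338), TSEN15, a subunit of the transfer RNA splicing endonuclease (1.55, adjusted p = 0.00427), and XPOT (1.18, adjusted p = 0.000843). It was lower in NB4 cells for POLR2E (−0.94, adjusted p = 0.00852) and POLR2I (−0.79, adjusted p = 0.0459). Groups of 3 libraries were not tested for outlying samples.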

How the results depend on the processing

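Every call rests on 3 libraries against 3, so 1 library can decide a count. The calls of POLR3G and POLR3D in MOLM-13 and of POLR3K in NB4 cells held with each of the 6 libraries left out. That of POLR3E in MOLM-13 cells held in 3 of these 6 fits, and that of POLR3G in NB4 cells in 5 of 6. Of 9 subunits, 3 were called lower in MOLM-13 cells, 1 with no filter (POLR3G) and 1 with a mean of at least 5 RPKM, where fewer genes are tested, and 2 to 4 with a library left out (4 without DMSO replicate 2, 2 without DMSO replicate 1, DMSO replicate 3 or FP54 replicate 1). In NB4 cells 2 were called lower, 1 with a pseudocount of 1, 1 with a mean of at least 5 RPKM, 3 with median-ratio scaling or quantile normalization, and 1 to 2 with a library left out, and 1 was higher by adjusted p alone. Between the lines 1 differed, 2 with no filter, 0 with median-ratio scaling, 0 with the replicate block, and 1 to 4 with a library left out (4 without MOLM-13 DMSO replicate 2, 2 without MOLM-13 FP54 replicate 3). The replicate numbers did not pair the libraries (correlations of deviations −0.262 to −0.0577 in MOLM-13 and −0.143 to 0.123 in NB4 cells). Under that block POLR3D had a limma adjusted p of 0.0547, and MYC in MOLM-13 cells was called (adjusted p = 0.0269 from limma). Fold changes near 0 changed sign. With median-ratio scaling these were POLR3C in MOLM-13 (−0.024) and POLR3B (−0.063) and POLR3D (−0.15) in NB4 cells, with quantile normalization POLR3B (−0.0077) and MAF1 (0.036) in NB4 cells, with background subtraction POLR3C in MOLM-13 cells (−0.000176), and with limma-voom the difference in POLR3GL (0.028). With a library left out, MOLM-13 values ranged from −0.051 to 0.050 for POLR3C, −0.10 to 0.43 for POLR3GL, −0.73 to 0.0017 for POLR3K, −0.064 to 0.18 for MAF1 and −0.082 to 0.070 for FTO, and NB4 values from −0.022 to 0.25 for POLR3B and −0.15 to 0.0089 for MAF1. Differences between lines ranged from −0.10 to 0.034 for POLR3A, −0.18 to 0.011 for POLR3F, −0.22 to 0.31 for POLR3GL and −0.67 to 0.065 for POLR3K. The change in the POLR3G to POLR3GL ratio stayed negative in both lines under all alternatives run. Where no construction is named, the cause was not tested. Depth limits POLR3G, POLR3E and POLR3B in MOLM-13 cells, at 23, 30 and 37 reads in the shallowest library.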
